A study of Homo sapiens with 8 samples.

Results

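Toll-like receptors and the serum amyloid A proteins form a short signalling axis, and 10 of its genes were followed in IMR90 human lung fibroblasts exposed to the secretions of senescing fibroblasts. They were taken from the count table by gene symbol: the ligands SAA1 and SAA2, the receptors TLR1, TLR2, TLR3 and TLR4, the co-receptor CD14, the adaptor MYD88, and IRAK2 and IRAK3 of the interleukin-1 receptor-associated kinase family. All 10 were found among 27696 genes. Recipient IMR90 cells, a strain of normal fibroblasts, had received, over 3 days, the conditioned medium of IMR90 ER:RAS fibroblasts, which carry a RAS oncogene fused to an oestrogen receptor domain and enter senescence when 4-OHT (4-hydroxytamoxifen) is added. The medium came from day 0, 4, 7 or 10 of induction, and the groups are called D0, D4, D7 and D10 after it. Each group held 2 poly(A) RNA-seq libraries from 2 independent experiments, so that every comparison rests on 1 fibroblast strain and 2 libraries against 2. Experiments 1 and 2 are the replicate numbers of the labels, which do not state how libraries of different groups pair.

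Serum amyloid A proteins are small lipid-binding proteins that the liver secretes in the acute-phase response, and they can signal through Toll-like receptors. Toll-like receptors at the cell surface or in endosomes bind microbial or host molecules, TLR4 together with CD14 and the small protein LY96 (MD-2). Most of them recruit MYD88, which assembles IRAK kinases and leads to activation of NF-κB, a transcription factor of inflammatory genes. Receptors of the interleukin-1 family use the same adaptor and kinases. IRAK2 transmits this signal, whereas IRAK3, found mainly in monocytes and macrophages, restrains it.

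Of these 10 genes, IRAK2 with D10 medium was the 1 call of the edgeR test on filtered genes without the experiment as a term, and other fits added IRAK2 at D7 and IRAK3 at D10. IRAK2 rose to 5.76 times its D0 level at D10, and IRAK3 was 3.89 times its D0 level, which passed the test when the 2 experiments were treated as blocks. In such bulk RNA, a change in the number of cells that express a gene and a change in RNA per cell cannot be told apart. No Toll-like receptor, no serum amyloid A gene and neither CD14 nor MYD88 passed the test on any day, with or without the block, in the fits of all 8 libraries. TLR2 and TLR4 were at or near 0 in all 8 libraries, and SAA2 and TLR1 were also too low to judge. SAA1, TLR3 and CD14 could be tested, but at counts of no more than 32 per library.

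The promoters of IRAK2 and IRAK3 are shown first because these are the members called at D10 in any fit of all 8 libraries. IRAK3 was called only with the block or without the filter on low counts. Each runs from 250 bases before to 50 bases after the start in RefSeq (GRCh38.p14), 5′ to 3′ on the gene's strand, and capitals mark every match to GGGNNNNNCC, a loose form of the NF-κB site, on either strand.
IRAK2, chr3:10164669-10164968, plus strand: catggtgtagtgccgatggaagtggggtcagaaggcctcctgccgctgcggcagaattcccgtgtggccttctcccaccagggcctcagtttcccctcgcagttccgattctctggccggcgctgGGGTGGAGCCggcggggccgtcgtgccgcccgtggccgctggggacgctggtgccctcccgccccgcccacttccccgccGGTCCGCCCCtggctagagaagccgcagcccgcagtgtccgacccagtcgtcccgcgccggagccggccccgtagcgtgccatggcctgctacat
IRAK3, chr12:66188964-66189263, plus strand: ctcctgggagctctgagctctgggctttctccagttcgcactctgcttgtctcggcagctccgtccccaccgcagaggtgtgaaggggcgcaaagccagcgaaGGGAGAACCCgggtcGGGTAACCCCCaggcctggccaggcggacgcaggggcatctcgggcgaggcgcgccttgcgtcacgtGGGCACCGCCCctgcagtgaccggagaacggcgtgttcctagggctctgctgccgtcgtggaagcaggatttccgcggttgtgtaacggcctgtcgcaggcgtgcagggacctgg
Promoters were found for 7 of the 10 members, namely these and those of MYD88, TLR2, TLR3, TLR4 and CD14. IRAK2 held 2 matches, at bases -125 to -116 and -45 to -36 from the start, and IRAK3 held 7 when each strand is counted, since several overlap. MYD88 held 3 matches and TLR2 held 7, whereas TLR3, TLR4 and CD14 held 0. The form was thus present in 4 of 7 members, and in 58.7% of 35116 RefSeq promoters of the same length. Matches to TTGCNNAA, a form of the C/EBP site, occurred in 1 of the 7 promoters, that of TLR3, and in 10.5% of all promoters.

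Total counts per library ran from 11708193 to 13395912, and 3 counts, the floor used here, corresponded to between 0.218 and 0.251 CPM, that is, counts relative to normalized library size on the usual scale. Fibroblast markers were abundant in all libraries. The summed CPM of 10 of them lay between 30386 and 46849 in 7 libraries but was 10131 in D10 experiment 2, which therefore stood apart, and the collagen gene COL1A1 had 16415 counts there against 114359 or more elsewhere. Of 10 myeloid markers, whose lineage is rich in Toll-like receptors and CD14, only LYZ exceeded 3 counts in every library. Their summed CPM was 1.09 to 1.42 in D0, 1.42 to 1.86 in D4, 1.68 to 1.97 in D7 and 1.82 to 1.89 in D10, and the leukocyte genes PTPRC and ITGAM never exceeded 1 count. The part of these markers in the results was not tested.

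The serum amyloid A genes lie close together on chromosome 11 (GRCh38, GENCODE 29), SAA1 at chr11:18266174-18269977 on the plus strand and SAA2 at chr11:18239223-18248643 on the minus strand. Their mRNAs are near-identical in part. Of the 50-base words in SAA1 exons, 46.6% also occur in SAA2, so reads could be split between them and both values are uncertain. SAA1 had 8 and 7 counts in D0, 15 and 21 in D4, 11 and 16 in D7, and 15 and 16 in D10, in experiments 1 and 2. These correspond to 0.590 ± 0.114 CPM in D0, 1.36 ± 0.284 in D4, 1.03 ± 0.265 in D7 and 1.22 ± 0.0526 in D10 (mean ± SD, n = 2). Both D0 libraries were the lowest of the 8, and D4, D7 and D10 overlapped each other. Every library other than those of D0 held at least 11 counts. SAA1 thus passed the filter on low counts through its D4, D7 and D10 libraries, a selection that favours a rise from D0.

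The difference of SAA1 from D0 did not pass the test with any medium. Its log2 fold change was 1.20 ± 0.476 (SE) in D4, 0.80 ± 0.485 in D7 and 1.05 ± 0.481 in D10, with edgeR adjusted p-values of 1, 1 and 0.678. With the experiment as a block the adjusted p at D10 was 0.263. Summing SAA1 and SAA2 into 1 feature gave 1.06, 0.74 and 0.87, with adjusted p-values of 1, 1 and 0.733. SAA2 itself had between 1 and 6 counts per library, and its 31 counts in all 8 libraries amount to 0.299 CPM with a 95% exact Poisson interval of 0.203 to 0.424. This interval, like the others given for counts, covers counting error only. SAA2 was too low to judge.

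Transcripts known from liver were present at low levels in every library. Of 13 hepatocyte genes, chosen after the values were seen, 3 exceeded 3 counts in every library, among them ALB (albumin) with 42 to 69 counts and CYP2E1 (a liver cytochrome) with 38 to 66, while between 0 and 2 of the 13 were at 0 in a library. Their summed level was 9.80 and 10.2 CPM in D0, 15.0 and 12 in D4, 10.5 and 13.0 in D7, and 12.9 and 9.94 in D10. SAA1 counts amounted to 6.84% and 5.0% of the summed counts in D0, 7.77% and 13.0% in D4, 8.03% and 9.36% in D7, and 9.20% and 12.7% in D10. With both experiments summed, D4 stood at 2.34 times D0 for SAA1 (95% counting interval 1.25 to 4.61) and at 1.34 times for the hepatocyte genes (1.14 to 1.59). At D10 the ratios were 2.10 (1.10 to 4.18) and 1.14 (0.961 to 1.35). Within experiments 1 and 2, SAA1 at D4 stood at 1.74 (0.691 to 4.73) and 3.07 times D0 (1.26 to 8.56). The hepatocyte genes stood at 1.53 (1.21 to 1.94) and 1.18 times (0.933 to 1.49). At D10 the SAA1 ratios were 1.77 (0.705 to 4.82) and 2.48 (0.964 to 7.12), so that both intervals included 1. Those of the hepatocyte genes were 1.32 (1.03 to 1.68) and 0.975 (0.760 to 1.25). The part of these transcripts in the SAA1 values was not tested.

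**Figure D1:**
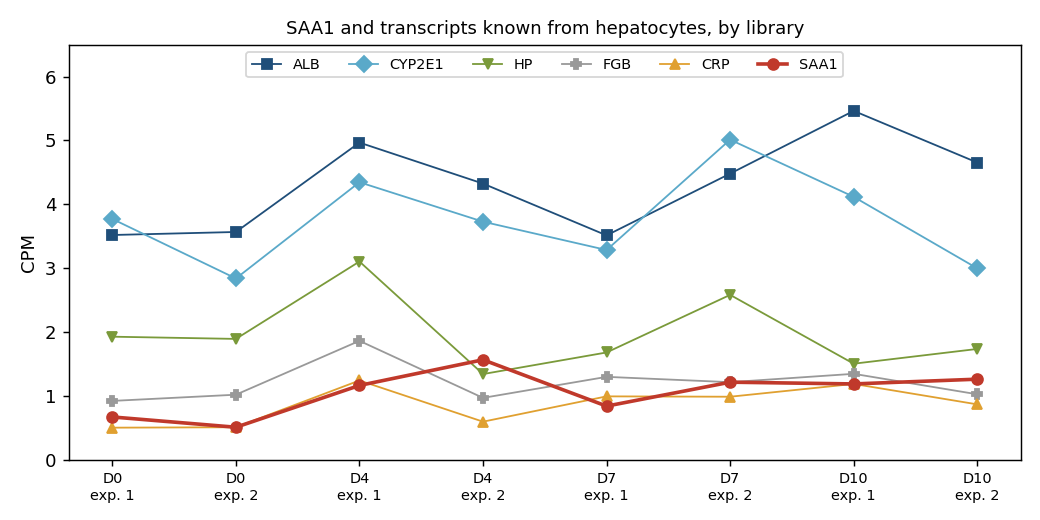
CPM of SAA1 (red) and of 5 transcripts known from hepatocytes in each of the 8 libraries, with lines joining libraries only to guide the eye. SAA1 lies between 0.510 and 1.57 CPM, CRP between 0.503 and 1.24 CPM and ALB between 3.51 and 5.46 CPM.

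Among the surface receptors, TLR2 (chr4:153684070-153705702, plus strand), which recognises lipoproteins and can bind serum amyloid A, was read once. That count fell in D0 experiment 1, and the other 7 libraries held 0. Over all libraries this is 0.00965 CPM with an exact Poisson interval of 0.000244 to 0.0537. The 2 D10 libraries had 0 counts each, and the floor of 3 counts corresponds to 0.238 and 0.237 CPM there. TLR4 (chr9:117704175-117724730, plus strand), the receptor for lipopolysaccharide, had 14 counts in total and at most 3 in any library, or 0.135 CPM (0.0738 to 0.227). TLR1 (chr4:38790677-38856817, minus strand), a partner of TLR2, had 2 and 13 counts in D0, 2 and 10 in D4, 4 and 6 in D7 and 8 and 6 in D10. The experiments differed more than the media did, and 5.33% of its 50-base words are shared with the neighbouring paralog TLR6. For TLR1 the ratio of D10 to D0 was 3.78 (0.754 to 36.5) in experiment 1 and 0.500 (0.156 to 1.41) in experiment 2. A difference between media in TLR1, TLR2 or TLR4 was not detectable at this depth.

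TLR3 (chr4:186069152-186088069, plus strand), an endosomal receptor for double-stranded RNA that signals without MYD88, had 15 and 21 counts in D0, 6 and 9 in D4, 9 and 10 in D7, and 10 and 1 in D10. Both D0 libraries were the highest of the 8, and only in D0 did both libraries hold more than 10 counts. TLR3 thus passed the filter on low counts through its D0 libraries, a selection that favours a fall from D0. Its log2 fold change at D10 was -1.66 ± 0.766 (SE), with an adjusted p of 0.680 and of 0.240 with the block, and the values at D4 and D7 were -1.28 and -0.94. The D10 value depended on the 1 count in D10 experiment 2, which was the library with the lowest fibroblast markers. Without that library the log2 fold change was -0.81. Without D10 experiment 1, which left the library with 1 count, it was -3.97 (adjusted p = 0.115), and the blocked fit then called TLR3 (adjusted p = 0.00889). In experiment 1 alone D10 stood at 0.630 times D0 (0.253 to 1.499).

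CD14 (chr5:140631728-140633701, minus strand), which passes ligands to TLR4, had 32 and 13 counts in D0, 25 and 14 in D4, 25 and 28 in D7, and 24 and 12 in D10. The groups overlapped on all days. Its log2 fold change was -0.27 ± 0.617 (SE) in D4, 0.16 ± 0.607 in D7 and -0.34 ± 0.621 in D10, with adjusted p-values of 1, 1 and 0.998. In experiment 2 the D7 library was 2.25 times its D0 library (1.13 to 4.73), and in experiment 1 it was 0.712 times (0.405 to 1.24), so that the experiments differed in direction.

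**Figure D2:**
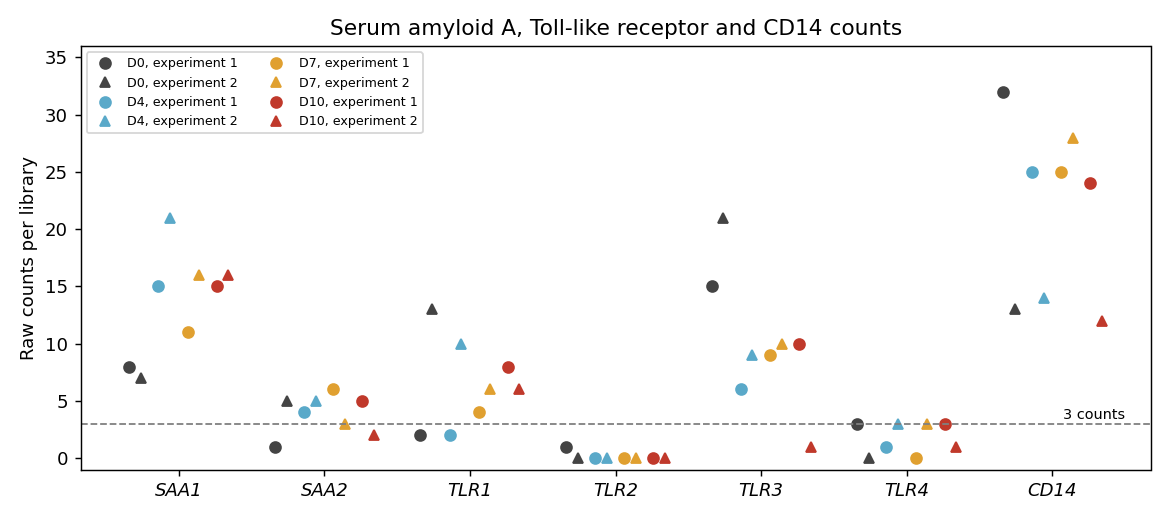
Raw counts per library of the 7 members with low counts, with colour for the medium and shape for the experiment, and a dashed line at 3 counts. TLR2 and TLR4 stay at or below the line in all 8 libraries. SAA1 is lowest in the 2 D0 libraries and passed the filter on low counts through the other libraries.

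MYD88 (chr3:38138478-38143022, plus strand), the adaptor shared by most Toll-like receptors and the interleukin-1 receptor family, was the most abundant member at D0. It had 71.1 and 55.4 CPM in D0, 65.7 and 47.6 in D4, 63.7 and 50.05 in D7, and 56.1 and 31.2 in D10, in experiments 1 and 2. Experiment 2 was lower with each medium, and D10 overlapped D0. The log2 fold change at D10 was -0.54 ± 0.326 (SE) with an adjusted p of 0.892, and the blocked fit gave -0.57 ± 0.158 with an adjusted p of 0.0843. Within the experiments, D10 stood at 0.789 times D0 (0.713 to 0.873) in experiment 1 and at 0.562 times (0.497 to 0.636) in experiment 2. Without D10 experiment 2 the log2 fold change at D10 was -0.17, and -0.36 with the block. Without D10 experiment 1 it was -1.003 (adjusted p = 0.296), and -0.80 with the block, which then called MYD88 (adjusted p = 0.00801). At D4 and D7 it was -0.16 and -0.15.

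IRAK2 (chr3:10164865-10243743, plus strand) was the member that differed most clearly between media. It had 127 and 104 counts in D0, 192 and 187 in D4, 417 and 256 in D7, and 677 and 650 in D10. In CPM these are 10.6 and 7.57 in D0, 14.9 and 13.9 in D4, 31.9 and 19.4 in D7, and 53.6 and 51.3 in D10. The 4 groups did not overlap, and their order was D0, D4, D7 and D10 in both experiments. Each step was larger than counting error in both, the smallest being D7 at 1.39 times D4 (1.15 to 1.69) in experiment 2 and D4 at 1.40 times D0 (1.11 to 1.77) in experiment 1.

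At D10 the log2 fold change of IRAK2 was 2.53 ± 0.305 (SE) with an edgeR adjusted p of 0.0330, and IRAK2 was 1 of 6 tested members called, where 0.29% of all tested genes (40 of 13798) were called, and 2.17% with DESeq2. The D10 library stood at 5.04 times D0 in experiment 1 (4.16 to 6.14) and at 6.77 times in experiment 2 (5.50 to 8.41). The blocked fit gave 2.55 ± 0.205 with an adjusted p of 0.000501. This call without the block was lost when either D0 library, either D4 library or D10 experiment 2 was left out, with adjusted p-values of 0.129 and 0.244 without D0 experiments 1 and 2, 0.0671 and 0.0650 without D4 experiments 1 and 2, and 0.0984 without D10 experiment 2. A fit of the D0 and D10 libraries alone gave an adjusted p of 0.0969. With all 8 libraries and no block, DESeq2 gave 2.53 ± 0.357 (adjusted p = 9.92e-10). By edgeR with neither the block nor the filter on low counts it was 2.53 ± 0.330 (adjusted p = 1.34e-05), where 371 of 27696 genes were called. In the edgeR fits of filtered genes without the block, the log2 fold change stayed between 2.29 and 2.79 as each of the 8 libraries was left out. In the blocked fits it stayed between 2.35 and 2.75, with adjusted p-values of at most 0.00992.

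At D7 the log2 fold change of IRAK2 was 1.49 ± 0.297 (SE), and the call depended on the method. The adjusted p was 0.307 without the block, 0.0167 with it, 0.0250 without the block or the filter on low counts, and 0.00628 with DESeq2. The blocked fit called 1.25% of all tested genes at D7 and DESeq2 0.785%, while edgeR without the block called 0% (599 genes had an unadjusted p below 0.05). Leaving out either D0 or either D7 library ended the blocked call, with adjusted p-values from 0.0957 to 0.223. At D4 the log2 fold change was 0.66 ± 0.296, with adjusted p-values of 1 without the block and 0.335 with it. No member was called at D4 by edgeR without the block, with it, or by DESeq2, which called 0%, 0.275% and 0.287% of all tested genes, and 1 member, SAA1, had an unadjusted p below 0.05 in the fit without the block. In a comparison of D10 with D4, added after the values were seen, IRAK2 differed by 1.86 ± 0.196 on the log2 scale with the block (adjusted p = 0.00356) and by 1.86 ± 0.296 without it (adjusted p = 0.202). Between D10 and D7 it differed by 1.06 ± 0.190 with the block (adjusted p = 0.0779).

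IRAK3 (chr12:66188879-66254622, plus strand) followed another course. It had 20 and 60 counts in D0, 14 and 34 in D4, 26 and 22 in D7, and 84 and 216 in D10, or 1.68 and 4.37 CPM in D0, 1.09 and 2.53 in D4, 1.99 and 1.67 in D7, and 6.65 and 17.04 in D10. The 2 D10 libraries were the highest of the 8, and D0, D4 and D7 overlapped. Experiment 2 was higher than experiment 1 at D0, D4 and D10. Relative to its own D0 library, D10 was 3.97 times as high in experiment 1 (2.41 to 6.82) and 3.90 times in experiment 2 (2.92 to 5.28).

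The log2 fold change of IRAK3 at D10 was 1.96 ± 0.633 (SE) with an adjusted p of 0.352, and with the block 1.95 ± 0.371 with an adjusted p of 0.0204. IRAK2 and IRAK3 were thus the 2 of 6 tested members called with the block, where 4.99% of all tested genes were called. Without the block, DESeq2 gave an adjusted p of 0.0879, and edgeR without the filter on low counts called IRAK3 (log2 fold change 1.97, adjusted p = 0.0358). The blocked call was lost without either D0 library, with adjusted p-values of 0.137 and 0.156. Without D10 experiment 2 the log2 fold change was 1.62 with the block (adjusted p = 0.0433) and 1.13 without it (adjusted p = 1.00). In the blocked fit without D10 experiment 1, where 1906 genes were called in all, IRAK3, IRAK2, MYD88 and TLR3 were called. At D4 IRAK3 stood at 0.648 times D0 (0.303 to 1.35) and 0.580 times (0.369 to 0.899) in the 2 experiments, and its log2 fold change of -0.74 ± 0.658 did not pass the test. Of the exon bases of IRAK3, 2.44% are overlapped by a gene on the opposite strand, whereas IRAK2 and MYD88 have no such overlap.

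**Figure D3:**
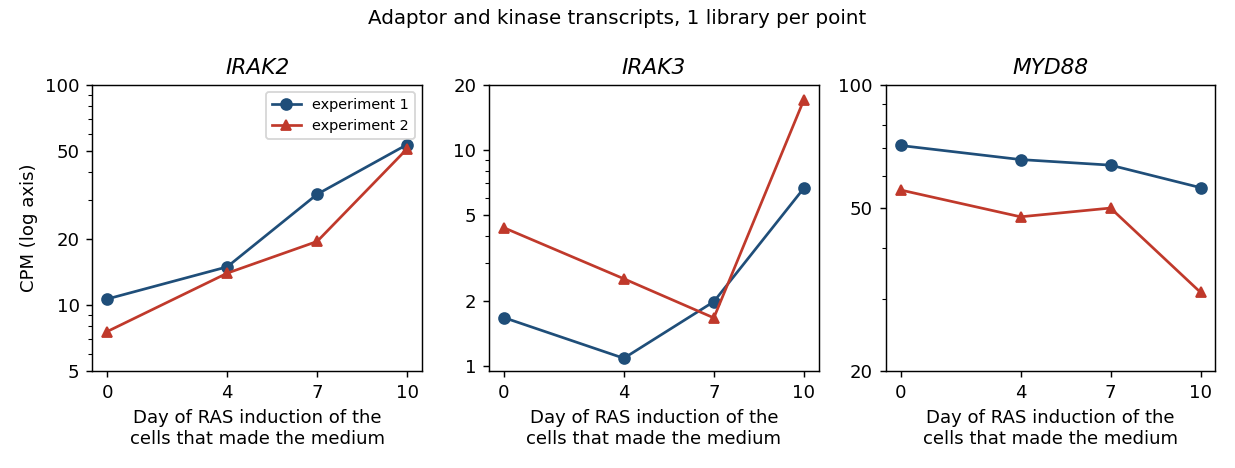
CPM on a log axis of IRAK2, IRAK3 and MYD88 against the day of induction of the cells that made the medium, with 1 library per point and a line per experiment. IRAK2 reaches 53.6 and 51.3 CPM at D10 from 10.6 and 7.57 at D0, IRAK3 is highest at D10 in both experiments, and MYD88 is lowest at D10 in both.

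Per kilobase of exon, levels can be compared between genes. At D0, MYD88 had 13.9 to 17.8 CPM per kb and IRAK2 2.17 to 3.06, while at D10 IRAK2 had 14.7 to 15.4 and MYD88 7.81 to 14.1. On this scale IRAK2 was thus above MYD88 in both D10 libraries and below it in both D0 libraries. In CPM, before division by length, IRAK2 was below MYD88 in D10 experiment 1 (53.6 against 56.1). It was above MYD88 in D10 experiment 2 (51.3 against 31.2). IRAK3 had 0.168 to 0.437 CPM per kb at D0 and 0.665 to 1.70 at D10. The level of SAA1 at D10 was 1.49 to 1.59 CPM per kb, that of CD14 was 0.502 to 1.01, and these ranges overlapped that of IRAK3. TLR3 and TLR1 lay below 0.228 CPM per kb in every library, and TLR4 below 0.0190. Lengths were those of all annotated exons merged, which understates the level of a gene with many unused exons.

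**Figure D4:**
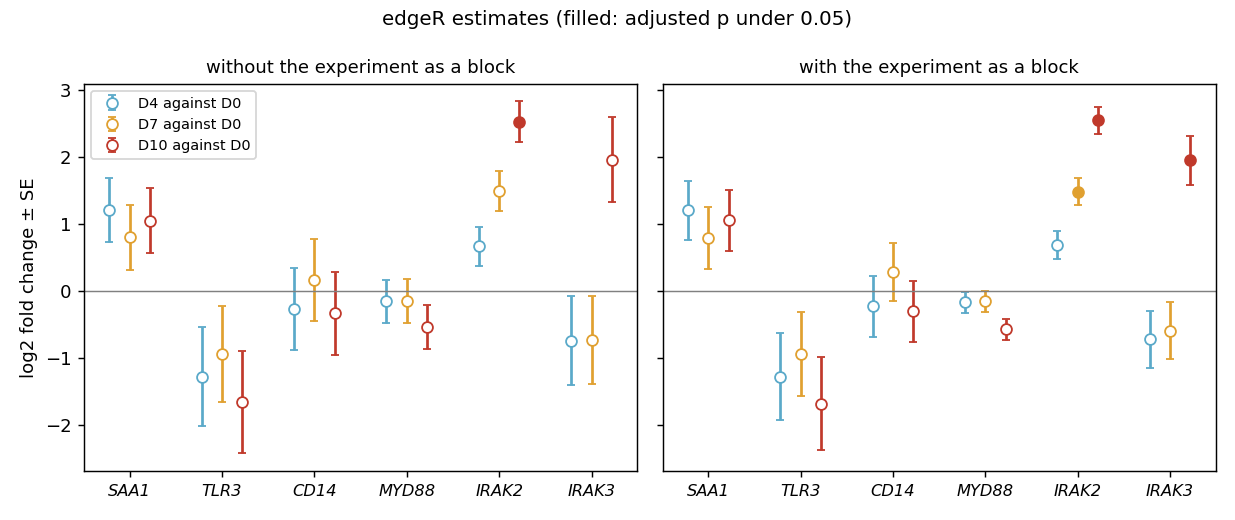
Log2 fold change ± SE of the 6 tested members at D4, D7 and D10 against D0, from edgeR without (left) and with (right) the experiment as a block, filled where the adjusted p is under 0.05. IRAK2 at D10 is filled in both panels, and IRAK2 at D7 and IRAK3 at D10 only with the block.

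The rest of the pathway was covered by 8 lists with 80 genes. At D10, 1095 of all 13798 tested genes had an unadjusted p below 0.05 by edgeR without the block, and 2517 with it. Of the other Toll-like receptors, 2 of 5 in the table were tested, TLR7, TLR9 and TLR10 having at most 1 count in a library. TLR6, which pairs with TLR2, lay between 2.79 and 8.13 CPM, and TLR5, the flagellin receptor, had a log2 fold change of 0.64 ± 1.05 at D10 (adjusted p = 0.998). Without D10 experiment 2, where TLR5 had 2 counts, it was 1.56 (adjusted p = 0.993). Neither passed the test on any day by edgeR, with or without the block, or by DESeq2, and none had an unadjusted p below 0.05 without the block. Of the co-receptors and chaperones, 5 of 7 were tested and 0 were called at D10 by edgeR or DESeq2, with 1 at an unadjusted p below 0.05 without the block. That was UNC93B1, the chaperone that carries endosomal Toll-like receptors, at -0.69 ± 0.285 (adjusted p = 0.586). LY96, the partner of TLR4, was expressed at 8.81 to 12.9 CPM. TLR6 and LY96 were named after their values were seen.

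Among the adaptors and proximal kinases, all 22 genes in the table were tested, and 0 were called at D10 without the block. Of the 22, 2 had an unadjusted p below 0.05 there, beside 1095 of 13798 over all tested genes. With the block 10 of the 22 had one, beside 2517 of 13798. IKBKB, the kinase that releases NF-κB, was the 1 of the 22 called with the block, where 4.99% of all tested genes were called, at a log2 fold change of 0.85 ± 0.137 (adjusted p = 0.00999), and at D7 as well, and by DESeq2 at D10. Its level was 55.3 and 55.5 CPM at D0 and 100.2 and 99.7 at D10. The other 2 IRAK genes did not pass the test. IRAK1, the signalling kinase, ran from 117.4 to 184.3 CPM with a log2 fold change of 0.47 ± 0.268 (adjusted p = 0.848), and IRAK4, which acts first in the cascade, had -0.19 ± 0.253 (adjusted p = 0.998). These were also named after their values were seen. The median log2 fold change of the list was 0.18 with the block, beside 0.01 over all tested genes.

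Of 9 negative regulators, 1 rose at D10 without the block, where 0.29% of all tested genes were called, and 3 with it, where 4.99% were. ZC3H12A, an RNase that degrades inflammatory mRNAs, had 6.70 and 8.73 CPM at D0 and 36.1 and 62.5 at D10, with a log2 fold change of 2.67 ± 0.369 (adjusted p = 0.0434). TNFAIP3 (A20), a ubiquitin-editing inhibitor of NF-κB signalling, had 4.27 and 10.3 CPM at D0 and 22.8 and 163.8 at D10, so that the 2 D10 libraries differed widely. With the block its log2 fold change was 3.399 ± 0.524 (adjusted p = 0.00827), and without D10 experiment 2 it was 2.11 (adjusted p = 0.000421). TNIP1, which binds TNFAIP3, had 0.93 ± 0.139 (adjusted p = 0.00701). Without the block, TNFAIP3 and TNIP1 had adjusted p-values of 0.151 and 0.420, and leaving out D10 experiment 2 there ended the call of ZC3H12A (adjusted p = 0.129) but not with the block. DESeq2, run without the block, called ZC3H12A and TNFAIP3 at D10 (adjusted p = 1.84e-08 and 2.98e-05) but not TNIP1 (adjusted p = 0.253). It called 2.17% of all tested genes. The list had a median of 0.29 with the block.

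The interleukin-1 family receptors that use MYD88 included 3 tested genes of 6, of which 0 passed without the block, with 2 at an unadjusted p below 0.05, and 2 rose at D10 with it. Of all tested genes, 0.29% and 4.99% were called, and 1095 of 13798 had an unadjusted p below 0.05 without the block. IL1R1, the receptor of interleukin-1, had 108.1 and 136.8 CPM at D0 and 258.3 and 246.9 at D10, with a blocked log2 fold change of 1.08 ± 0.246 (adjusted p = 0.0429). IL18R1, the interleukin-18 receptor, had 1.84 and 1.97 CPM at D0 and 4.99 and 16.4 at D10, with 2.33 ± 0.380 (adjusted p = 0.0104). Without the block the adjusted p was 0.490 and 0.198, and DESeq2 called IL18R1 alone. Without D10 experiment 2 the blocked log2 fold change of IL18R1 was 1.77 (adjusted p = 0.0172). The median of the 3 genes was 1.08 with the block.

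In the remaining lists no gene was called at D10 by edgeR, with or without the block. Of 5 tested endogenous ligands of Toll-like receptors, TNC (tenascin C) had the largest log2 fold change, 1.43 ± 0.406 (adjusted p = 0.252). It was the 1 ligand with an unadjusted p below 0.05 without the block, where 1095 of all 13798 tested genes had one. With the block 4 of the 5 ligands had one, beside 2517 of all tested genes. Of the 5 ligands, 2 were higher and 3 lower than D0 in both experiments at D10, and their median log2 fold change was -0.07 with the block. DESeq2 called TNC (adjusted p = 0.0169). Of 9 tested acute-phase proteins, CRP had the largest, 1.01 ± 0.545 (adjusted p = 0.822), at 0.503 to 1.24 CPM. Of 2 tested receptors of serum amyloid A, AGER had 0.68 ± 0.770 (adjusted p = 0.998), which turned to -0.57 without D10 experiment 2 and to 0.02 with the block as well. The formyl peptide receptors FPR1 and FPR2 had at most 1 count in a library. In the acute-phase and receptor lists, 0 genes had an unadjusted p below 0.05 at D10 without the block and 0 were called by DESeq2.

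**Figure D5:**
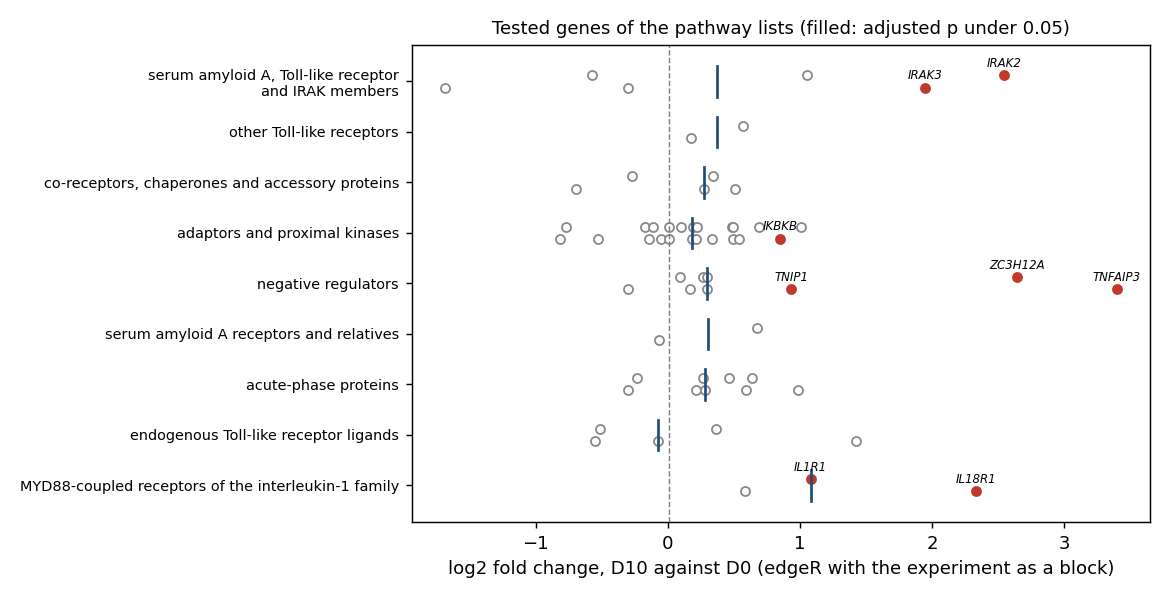
Log2 fold change at D10 against D0, from edgeR with the experiment as a block, of each tested gene of the 8 pathway lists and of the members, filled and named where the adjusted p is under 0.05. Blue bars mark list medians and the dashed line the median of all tested genes, and the 8 filled genes all lie to its right. Over all 13798 tested genes this fit called 688 at D10, 350 higher and 338 lower.

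The pattern of SAA1 over the 8 libraries was most like those of SYTL5, SCG2 and LINC00511, with Pearson's r of log2 CPM of 0.93, 0.92 and 0.90. That of IRAK3, which was added to this search after its values were seen, was most like those of DHX32, SLC7A2 and MME (each 0.98). The libraries share 2 experiments and 4 media, and these coefficients only describe them.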

How the data were processed

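RNA of 8 libraries was sequenced by the authors, who deposited raw counts per gene (whole numbers, not normalized). The submitters' processing notes list STAR 2.5, DESeq2 and GRCh38. Whether counting used strand is not given in the sources used here. Another 8 columns of normalized values were not used, and the header DO was taken as D0 replicate 1. Of 27696 identifiers, 99.6% are in GENCODE 29, the source of positions. Members and gene lists were chosen with earlier results of these data known.

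Genes were filtered with edgeR's filterByExpr (13798 kept), scaled by TMM and fitted with edgeR 4.0.16 (R 4.3.3, glmQLFit and glmQLFTest) by group over all 8 libraries, with Benjamini-Hochberg adjustment over all genes and a threshold of 0.05. A member outside the filter is too low to judge. CPM are counts over normalized library size. Counting intervals are exact (Poisson, or Clopper-Pearson for ratios). Same-numbered libraries were taken as paired, which is an assumption. The labels number the replicates 1 and 2 and the paper gives 2 independent experiments, but neither states the pairing. Deviations of same-numbered libraries from group means correlated across genes with r from 0.418 to 0.722 in all 6 pairs of groups. The fit with the replicate as a block is given where it changes a call. Without the block, p-values rest on the spread between libraries of the same group, pooled over groups. With the block, they rest on the spread left after the mean difference between the experiments is removed. Alternatives were other size factors, DESeq2 1.42.0, other filters, compared groups only, summed SAA genes, a threshold of 0.01 and leaving out libraries. Blocked fits with a library left out or the SAA genes summed were added after seeing the data. The fits were tested on simulated counts.

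Named genes are all members and, from each list, up to 5 genes called at D10 with or without the block or, where none was, the tested gene with the largest change. Genes with a similar pattern were sought for SAA1, TLR2 and TLR4 where tested. The same search for IRAK2 is not reported here. TLR8, CD180, LY86, IRF5, SAA4, SERPINA3, S100A12 and KRT5 were not analysed here.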

Additional observations from a re-analysis of the deposited data

Results flagged for a closer look

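The kinase-family gene IRAK3 had values on opposite sides of D0 with D4 and D10 medium, although the D4 difference of -0.74 ± 0.658 (SE) on the log2 scale did not pass the test (adjusted p = 1, and 0.794 with the replicate block). In both experiments it lay below D0 at D4 (0.648 and 0.580 times) and above D0 at D10 (3.97 and 3.90 times). Both comparisons share the D0 libraries. D10 exceeded D4 by 2.70 ± 0.660 (SE) on the log2 scale, with an edgeR adjusted p of 0.344 without and 0.0153 with the replicate block, where the difference was 2.67 ± 0.394. No group had enough libraries for a check of single outlying values.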

How the results depend on the processing

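Members called at D4 numbered 0 under every alternative. At D7 the count went from 0 to 1 (IRAK2) with DESeq2, with no filter and with the replicate block, as it did with the block and SAA1 and SAA2 summed, and ran from 0 to 1 with the block and 1 library left out. At D10 it went from 1 to 0 at an adjusted p under 0.01 and with the compared groups only, and to 2 with no filter, with the replicate block and with the block and summed SAA genes. Leaving out 1 library gave 0 to 1 without and 1 to 4 with the block. In the edgeR fits of filtered genes over all 8 libraries, the block changed no member call other than IRAK2 at D7 and IRAK3 at D10. With a library left out it changed others as well.

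All genes called went from 0 at D4 to 44 with DESeq2, 21 with no filter and 38 with the block, and from 0 at D7 to 112, 93 and 172. In the fit without the block, 409, 599 and 1095 genes had an unadjusted p below 0.05 at D4, D7 and D10. At D10 the 40 became 2 at an adjusted p under 0.01, 25 with total counts only, 379 with DESeq2, 371 with no filter, 20 with at least 10 counts in every library, 0 with the compared groups only and 688 with the block, and ran from 0 to 155 with 1 library left out.

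Direction changed only for differences that did not pass the test, and only when a library was left out. CD14 ran from -0.84 to 0.66 at D4, -0.41 to 1.08 at D7 and -0.91 to 0.58 at D10, MYD88 from -0.41 to 0.058 at D4 and -0.33 to 0.036 at D7, and IRAK3 from -1.47 to 0.11 at D4 and from -1.25 to 0.12 at D7, or -1.36 to 0.21 with the block. The cause was not tested. The low counts of SAA1, TLR3 and CD14 limit what could be detected.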
